A study of Mus musculus with 3 samples.

Results

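Choroid plexus epithelial nuclei made up 187 of the 35322 nuclei profiled in a single-nucleus RNA-sequencing study of mouse hippocampus. They were chosen by a marker rule on UMIs (unique molecular identifiers, each standing for 1 captured RNA molecule): at least 3 of the 8 genes Folr1, Kl, Otx2, Clic6, Slc4a5, Kcne2, Sulf1 and Cldn2 had to be detected. Nuclei with more than 1 UMI of the neuronal genes Slc17a7, Gad1, Gad2 and Plk5 together, any UMI of Aqp4, Csf1r or Mog, or more than 1 UMI of the fibroblast genes Ranbp3l, Slc6a13 and Slc47a1 together were left out. The levels of all these genes describe the choice and are no finding, and no gene of these nuclei is tested against the rest. The title of the study names HDAC6 inhibition and the cognitive impairment that follows doxorubicin. Its 3 libraries were a control with no treatment, doxorubicin (an anthracycline that poisons topoisomerase II and damages DNA), and doxorubicin with ACY-1083 (a small molecule that blocks the cytoplasmic deacetylase HDAC6). Each library pooled both hippocampi of 4 mice, flash-frozen before the nuclei were released with Triton X-100, and the labels used here give no dose, time, sex, strain or age. With 1 pooled library per group no test between groups was possible. Intervals in parentheses are at 95% and cover counting error only, not differences between mice.

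The choroid plexus is a folded epithelium over leaky capillaries that hangs into the brain ventricles, 1 of which lies beside each hippocampus. Its cells secrete cerebrospinal fluid by moving sodium, chloride, bicarbonate and water from blood to ventricle, and their tight junctions form the barrier between blood and cerebrospinal fluid. They also carry folate, thyroid hormone and other solutes into the fluid and secrete proteins such as transthyretin, the thyroid hormone carrier encoded by Ttr. The labels name hippocampus only.

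Members numbered 45 of 10909 nuclei in control (0.413%, 0.301 to 0.552%), 49 of 12221 in doxorubicin (0.401%, 0.297 to 0.530%) and 93 of 12192 in doxorubicin plus ACY-1083 (0.763%, 0.616 to 0.934%). The share in doxorubicin was 0.972-fold that in control (0.635 to 1.49), an interval that held 1. The share in doxorubicin plus ACY-1083 was 1.90-fold that in doxorubicin (1.33 to 2.75). That library was also deeper, with a median of 3278 UMIs per member against 1389 in doxorubicin and 1427 in control. With every nucleus thinned to 500 UMIs before the rule was applied, which left out no nucleus, 9, 13 and 18 members were found (0.0825%, 0.106% and 0.148%; here and below, 3 values in a row stand for control, then doxorubicin, then the library with ACY-1083). At that equal depth the ratio of the third library to doxorubicin was 1.39 (0.643 to 3.08), and a difference in the share was not detectable. Thinning made only depth equal, and the third library also differed along intron length, as given below. Before thinning, Sulf1, a rule gene with 157622 bases of intron, was detected in 62.2%, 59.2% and 95.7% of members. Cldn2, with 7234 bases, was detected in 22.2%, 22.4% and 23.7%. The part of this in the shares was not tested. Between pairs of libraries 29 to 46 cell barcodes were shared, and 0 of them belonged to a member.

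At the edge of the rule, 26, 49 and 28 nuclei had exactly 2 rule genes and passed the exclusions, and 23, 29 and 13 members had exactly 3. The median share of UMIs from Ttr, which the rule did not read, was 0.472%, 1.34% and 0.0728% just outside and 1.30%, 1.87% and 0.927% just inside. Of 12 further choroid plexus markers outside the rule (Ecrg4, Htr2c, Enpp2, Kcnj13, Trpm3, Aqp1, Car12, Slc12a2, Prlr, Lmx1a, Sostdc1 and Calml4), the median nucleus just outside had 4, 5 and 2, and the median nucleus just inside had 6 in each library. In control and doxorubicin, nuclei just outside thus carried many of the same markers. Another 11, 17 and 36 nuclei had at least 3 rule genes but met an exclusion, which for 10, 13 and 27 of them was the neuronal one.

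The members carried the markers of the label. At least 3 of the 12 further markers were detected in 45 of 45, 49 of 49 and 90 of 93 members, against 3.20%, 4.24% and 24.5% of the other nuclei. Trpm3, a cation channel, was detected in 45, 48 and 91 members, and in 13.6%, 14.0% and 58.4% of the other nuclei. Enpp2, which encodes autotaxin, the secreted enzyme that makes lysophosphatidic acid, was detected in 45, 49 and 92 members, against 18.6%, 23.4% and 36.2%. Htr2c, the serotonin receptor 2C, was detected in 43, 46 and 89 members, against 4.97%, 5.99% and 16%. Aqp1, the water channel of the apical membrane, was near the floor, with 1, 2 and 2 UMIs.

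Trpm3 and Htr2c are long genes with microRNAs in their introns, and the mature sequences are shown because both genes are among the leading genes described next. Trpm3 (chromosome 19, 22139046 to 22995410, GRCm38) hosts 1 hairpin and Htr2c (chromosome X, 146962513 to 147197277) hosts 6, in introns and on the gene's strand, with 2 and 11 mature products in RefSeq (GRCm38.p6). Both arms of the Trpm3 hairpin and 4 products of Htr2c are printed, with the seed, bases 2 to 8, in capitals. No seed occurs more than once among the 13 products. The seed of miR-204-5p is shared with miR-211-5p and miR-7670-3p, and that of miR-204-3p with miR-7684-5p. Mature miRNAs were not measured by this assay.
mmu-miR-204-5p: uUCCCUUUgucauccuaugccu
mmu-miR-204-3p: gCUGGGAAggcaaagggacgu
mmu-miR-448-3p: uUGCAUAUguaggaugucccau
mmu-miR-1298-5p: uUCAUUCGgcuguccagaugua
mmu-miR-1912-3p: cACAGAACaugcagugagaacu
mmu-miR-764-5p: gGUGCUCAcauguccuccu

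The 20 leading genes were those with the highest fold of members over the other nuclei, taken as the lowest bound over the 3 libraries, among 144 genes with at least 30 UMIs in each. These folds follow from the choice of nuclei and are given as a description. Values are CPM, counts of a gene per 1000000 UMIs of the same nuclei, so they are not per length and are compared within a gene only. Trpv4, an osmosensitive cation channel (ENSMUSG00000014158, chromosome 5, 114622152 to 114658421), led with 462, 411 and 269 CPM in members and 3.14, 3.04 and 1.68 CPM in the other nuclei. The rule genes Slc4a5, Otx2, Kl and Sulf1 were also among the 20. Otx2, a homeobox factor needed to form this epithelium, had 820, 629 and 417 CPM.

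Slc16a8, the lactate transporter MCT3, had 462, 398 and 145 CPM, and Slc13a4, a sulfate transporter, had 477, 398 and 402 CPM, and 484, 484 and 243 CPM in fibroblast-like nuclei. Steap2, a metalloreductase, had 954, 680 and 299 CPM. Tmem72, a transmembrane protein, had 1103, 809 and 734 CPM in members and at most 8.04 CPM in the other nuclei. Prlr, the prolactin receptor, had 1416, 847 and 916 CPM, and Col9a3, a chain of collagen IX, had 3354, 3529 and 1780 CPM. Htr2c had 3711, 3940 and 9819 CPM and Trpm3 had 9510, 8150 and 21101 CPM, both highest in the third library. That library differed from doxorubicin along intron length, as given below. The third library was 2.49-fold doxorubicin for Htr2c and 2.59-fold for Trpm3 in members, and 2.11-fold and 7.66-fold in the other nuclei.

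Of the list of 32 motile cilia genes, 1, Gmnc, was among the 20. Drc7, of the nexin-dynein regulatory complex, had 969, 706 and 514 CPM, Ccdc114, which docks outer dynein arms, had 775, 565 and 311 CPM, and Gmnc, a regulator of multiciliated cell fate, had 507, 501 and 1381 CPM. Ccdc114 was not particular to members: ependymal-like nuclei had 872, 933 and 448 CPM. Lrriq1 was likewise at 581, 777 and 1099 CPM in ependymal-like nuclei and 1014, 770 and 768 CPM in members.

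**Figure D1:**
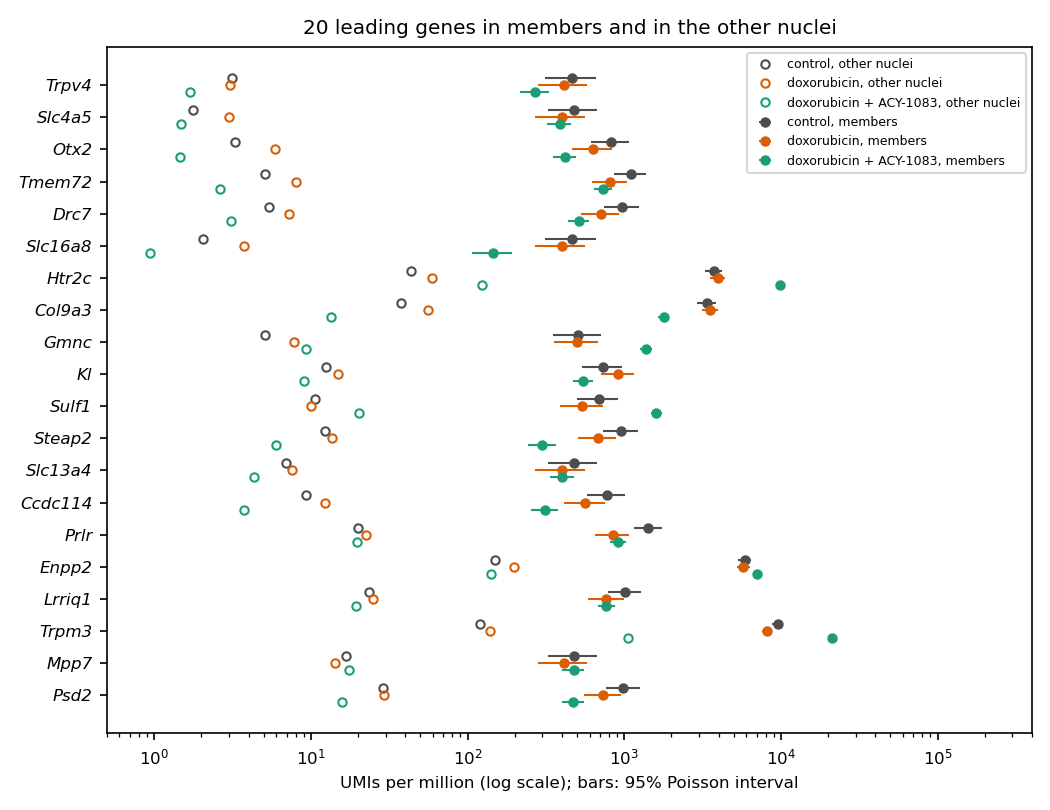
CPM (log axis) of the 20 leading genes in members (filled circles, bars for the 95% Poisson interval) and in the other nuclei (open circles) of the 3 libraries. Each filled circle lies to the right of the open circle of its library, from Trpv4, with 462 against 3.14 CPM in control, to Psd2, with 984 against 28.8 CPM.

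Promoters of the leading genes were searched for 2 short motifs. RefSeq windows (GRCm38.p6) from 250 bases before to 50 after the start were found for 15 of the 20 genes, 24 windows in all. TAATCC, the core recognised by Otx-type homeobox proteins, was looked for on both strands and stood in 2 of the 24 (1 each of Otx2 and Steap2) and in 7.06% of all 32851 windows. GTTGCC, a half-site of RFX factors, which act on cilia genes, stood in 3 (1 of Lrriq1 and 2 overlapping windows of Otx2) and in 12.5% of all windows. These matches are letters in a window, not binding sites. The windows of Steap2 (chr5:5694519-5694818, minus strand), with TAATCC and its reverse complement beginning 138 and 115 bases before the start, and of Lrriq1 (chr10:103236273-103236572, minus strand), with GTTGCC 19 bases before it, show the matches in capitals.
Steap2: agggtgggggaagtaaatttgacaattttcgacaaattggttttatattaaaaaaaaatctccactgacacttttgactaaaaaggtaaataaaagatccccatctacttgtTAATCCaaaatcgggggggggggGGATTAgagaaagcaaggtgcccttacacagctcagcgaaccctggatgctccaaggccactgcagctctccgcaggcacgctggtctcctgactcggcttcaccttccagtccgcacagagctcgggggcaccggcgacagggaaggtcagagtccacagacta
Lrriq1: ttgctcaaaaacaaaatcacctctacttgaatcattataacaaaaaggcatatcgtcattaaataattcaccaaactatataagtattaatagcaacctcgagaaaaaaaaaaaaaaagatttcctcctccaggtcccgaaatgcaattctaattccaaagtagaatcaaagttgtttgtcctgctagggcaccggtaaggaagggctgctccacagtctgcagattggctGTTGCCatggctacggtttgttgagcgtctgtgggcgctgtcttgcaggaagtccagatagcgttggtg

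Ependymal cells, the ciliated lining of the ventricles, and fibroblasts of the vessels and meninges lie next to this epithelium. They were set beside the members as 46 ependymal-like nuclei (at least 4 of 12 ependymal markers) and 215 fibroblast-like nuclei (at least 3 of 8 fibroblast markers), both chosen by genes in the same nuclei. Both sets also had to have fewer than 2 rule genes and to pass the neuronal and glial exclusions. Fibroblast-like nuclei were left out of the ependymal-like set. Low levels of choroid plexus genes in them are thus in part set by the choice. Median Ttr shares were 0.120%, 0.310% and 0.235% in the ependymal-like nuclei and 0.255%, 0.511% and 0.188% in the fibroblast-like nuclei, against 0.938%, 1.96% and 0.682% in members. Htr2c had 0, 104 and 40.7 CPM in the ependymal-like nuclei and 42.1, 113 and 23.8 CPM in the fibroblast-like nuclei. Trpm3 was less particular, with 12592 CPM in fibroblast-like nuclei of the third library against 336 and 404 CPM in the others. Calml4, a calmodulin-like protein, had 332, 207 and 40.7 CPM in ependymal-like nuclei and 268, 218 and 166 CPM in members.

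Among the markers of other cell types, the rule itself limited or excluded the neuronal genes Slc17a7, Gad1, Gad2 and Plk5, the glial genes Aqp4, Csf1r and Mog, and the fibroblast genes Ranbp3l, Slc6a13 and Slc47a1, so low sums are in part set by the choice. The 10 neuronal markers summed to 0.136-fold, 0.184-fold and 0.176-fold their level in the other nuclei, and the RNA Meg3 gave 139 of 206, 204 of 300 and 300 of 651 of their UMIs in members. The 7 astrocyte markers stood at 0.375-fold, 0.591-fold and 0.251-fold, and the 7 oligodendrocyte markers at 0.468-fold, 0.328-fold and 0.464-fold. The 8 fibroblast markers had 6, 7 and 13 UMIs, and Col1a1 and Lum had 0. The endothelial list had 25, 32 and 70 UMIs, of which Slco1a4, an organic anion transporter, gave 23, 26 and 64. It stood at 8.33-fold, 6.49-fold and 6.53-fold its level in the other nuclei. The microglial list had 2, 2 and 129 UMIs, and Cx3cr1 gave 97 of the last while Tmem119 had 0. That list stood at 0.503-fold, 0.387-fold and 2.10-fold the other nuclei. The 12 ependymal markers were 25-fold, 12.3-fold and 19.7-fold higher in members than in the other nuclei, led by Dnah6 with 47, 22 and 125 UMIs and Spef2 with 26, 24 and 134.

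Genes that move ions and water, a list of 26, included Atp1b1, a subunit of the sodium pump, with 1222, 1001 and 550 CPM, 1.59-fold to 1.99-fold the other nuclei. Stk39, the kinase SPAK, which activates the cotransporter NKCC1, had 999, 1039.6 and 3191 CPM, and Slc12a2, NKCC1 itself, had 447, 475 and 538 CPM. Slc4a10, a sodium-coupled bicarbonate transporter, had 552, 424 and 2140 CPM, and Car12, a carbonic anhydrase of the cell surface, had 760, 655 and 499 CPM. Kcnj13, the potassium channel Kir7.1, had 51, 26 and 74 UMIs and was detected in 30 of 45, 19 of 49 and 50 of 93 members.

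Of 31 genes for the transport of solutes, vitamins and hormones, 26, 27 and 28 had UMIs in members. Slco1c1, an organic anion transporter, had 462, 475 and 459 CPM. Slc23a2, which carries vitamin C, had 417, 244 and 746 CPM. The thiamine transporter Slc19a3 and the endocytic receptor Lrp2 had 0 UMIs in all 3 libraries, which allows up to 44.7, 38.5 and 9.07 CPM, the level of 3 UMIs.

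Among 21 transcription factors of regional identity, 13, 13 and 10 had 0 UMIs. Msx1, a homeobox factor of the dorsal midline, had 33, 20 and 46 UMIs. Lmx1a, a factor of the roof plate and cortical hem from which choroid plexus forms, had 2, 2 and 122 UMIs. In the third library it was detected in 68.8% of members and 0.471% of the other nuclei. Its ratio of the third library to doxorubicin was 14.4 (3.89 to 120) in members and 3.42 in the other nuclei. Of 32 motile cilia genes, 21, 24 and 27 had UMIs. All 4, 5 and 16 with at least 20 UMIs in members were higher there than in the other nuclei. That minimum favours genes that are high in members, and all 7, 11 and 49 oxidative phosphorylation genes that met it were higher too. Foxj1, the main switch of motile cilia, had 8, 6 and 22 UMIs, and Mcidas, which acts early in ciliogenesis, had 0. Junction genes were sparse, with 77, 104 and 584 UMIs over 23 genes, led by Ezr, which links the membrane to actin, with 26, 22 and 80.

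The main comparison set doxorubicin against control within the members. Of 265 genes with at least 50 UMIs in both libraries together, 21 were at least 1.5-fold higher in doxorubicin (7.92%) and 25 at least 1.5-fold lower (9.43%). Of 1312 genes with at least 20 UMIs, 15.9% were higher and 14.3% lower past that fold, with a median log2 ratio of -0.02. Of the 56 genes that could be named by the rule in the methods, 4 had an interval wholly above 1 and 6 wholly below. That rule read the level of a gene in the library where it was higher, so these counts describe and do not test.

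Ttr had 1006 UMIs in control, 2458 in doxorubicin and 2704 in doxorubicin plus ACY-1083. That is 14995 CPM (14083 to 15951), 31547 CPM (30312 to 32819) and 8172 CPM (7867 to 8486), so doxorubicin was highest and the third library lowest. The ratio of doxorubicin to control was 2.10 (1.95 to 2.27), and the other nuclei of the same libraries, which had 1264 and 2883 CPM, gave 2.28. Ttr was spread over the barcodes, detected in 85.1%, 98.2% and 96.8% of the other nuclei. Divided by the ratio of the other nuclei, that of members was 0.923 (0.857 to 0.994), so the higher level was not particular to members. In the third library the other nuclei had 783 CPM. Its ratio to doxorubicin was 0.259 (0.245 to 0.274) in members and 0.271 in the other nuclei. In single members, the Ttr share of UMIs ran from 0.242 to 11.4% in control (median 0.938%) and from 0.287 to 25.3% in doxorubicin (median 1.96%). In doxorubicin plus ACY-1083 it ran from 0.0872 to 14.8% (median 0.682%). The ranges overlapped, and a few nuclei stood far above the others.

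Members with more than 10% of UMIs from Ttr numbered 1, 2 and 1. The highest, in doxorubicin, had 941 Ttr UMIs of 3725 (25.3%). It had 6.74% mitochondrially encoded UMIs, against a median of 0.0507% in the members of that library under 10%, and 1.77% from the nuclear RNA Malat1, against 13.2%. The second in doxorubicin had 17.0% Ttr and 5.93% Malat1, and the one in control 11.4% Ttr and 6.86% Malat1. Without members over 10%, an alternative chosen after seeing the data, the ratio of doxorubicin to control was 1.42 (1.31 to 1.55). With each nucleus weighted alike it was 1.75. Doxorubicin stayed higher in both, and the size of the ratio rested in part on these few nuclei. Both values lay under the 2.28 of the other nuclei.

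**Figure D2:**
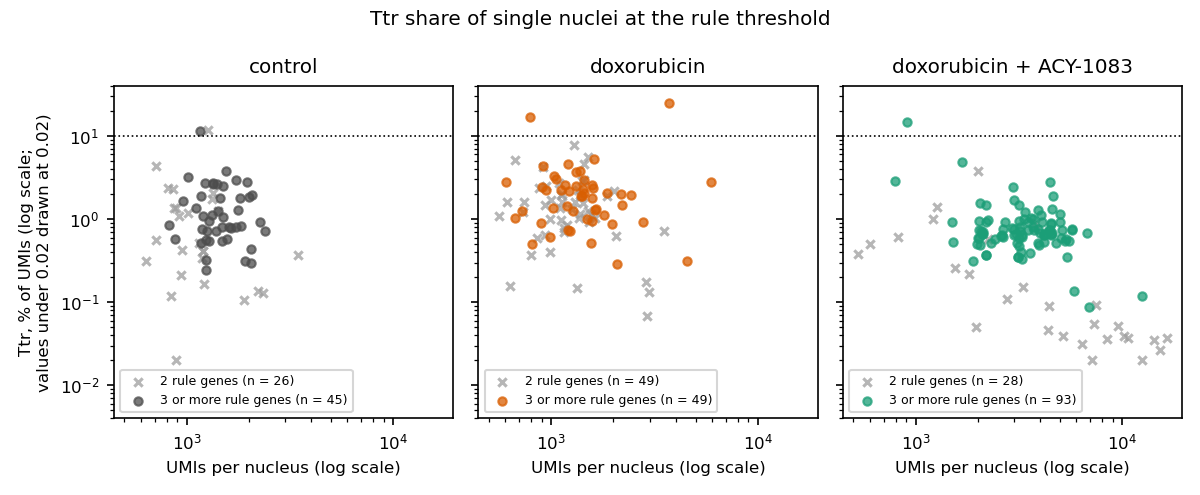
Share of UMIs from Ttr (log axis) against UMIs per nucleus (log axis) for members (circles) and for nuclei with exactly 2 rule genes that passed the exclusions (crosses), with a dotted line at 10%. Over the line lie 1, 2 and 1 members, up to 25.3% in doxorubicin, and circles and crosses overlap in control and doxorubicin.

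Apoe, a lipid carrier (chromosome 7, 19696109 to 19699188), had 88, 160 and 209 UMIs, and doxorubicin was 1.57-fold control (1.20 to 2.05; other nuclei 1.32). Ptgds, a prostaglandin D synthase secreted into cerebrospinal fluid (chromosome 2, 25466709 to 25470046), had 46, 92 and 156 UMIs, 1.72-fold (1.20 to 2.51; other nuclei 1.18). Both intervals still lay above 1 without the members over 10% Ttr, at 1.44 (1.09 to 1.91) for Apoe and 1.67 (1.15 to 2.47) for Ptgds. Ecrg4, a secreted peptide precursor, had 15, 38 and 31 UMIs, 2.18-fold (1.17 to 4.27), but 1.56-fold (0.794 to 3.16) without those members.

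Enpp2 and Col9a3 had ratios near 1. Enpp2, with 394 and 448 UMIs in control and doxorubicin, was at 0.979 (0.853 to 1.12), and Col9a3, with 225 and 275, at 1.05 (0.879 to 1.26). Sostdc1, an inhibitor of BMP and Wnt signals, had 18 and 9 UMIs, 0.431-fold (0.170 to 1.01). Of the 15 genes of the secreted protein list with at least 20 UMIs, 4 were past the fold higher and 2 lower. Over all 1312 genes 15.9% were higher and 14.3% lower past the fold. The median log2 ratio of the list was -0.03, beside -0.02 over all genes.

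Among the other named genes that were higher, Pnn, a nuclear protein tied to splicing, had 53 and 89 UMIs, 1.45-fold (1.02 to 2.07; other nuclei 0.976). With at least 4 rule genes required, Pnn was at 0.928. Psap, the precursor of the lysosomal saposins, had 39 and 66 UMIs, 1.46-fold (0.966 to 2.22). Htr2c, Srrm2, Ddx5, Col9a3 and Slc22a17 completed the 10 highest, with ratios from 1.03 to 1.13 and intervals that held 1.

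Prlr (chromosome 15, 10177238 to 10349180) was the lowest named gene, with 95 UMIs in control, 66 in doxorubicin and 303 in doxorubicin plus ACY-1083. It was detected in 35 of 45, 29 of 49 and 71 of 93 members. Doxorubicin was 0.598-fold control (0.430 to 0.828) in members and 1.13-fold in the other nuclei. Trpm3, with 638 and 635 UMIs, was at 0.857 (0.767 to 0.958) in members and 1.16 in the other nuclei. Neat1, the RNA scaffold of paraspeckles, had 209 and 187 UMIs, 0.770-fold (0.629 to 0.943), but 1.06-fold with at least 4 rule genes required. Without the members over 10% Ttr, the intervals of these 3 genes still lay under 1, with ratios of 0.596, 0.880 and 0.795.

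Snrnp70, of the U1 splicing particle, Pabpn1, a nuclear poly(A)-binding protein, and Zbtb20, a transcription repressor, had ratios of 0.830, 0.728 and 0.730. Their upper bounds were 0.986, 0.987 and 0.998, and the intervals held 1 without the members over 10% Ttr. Kcnq1ot1, Rsrp1, Tmem108 and Tmem72 completed the 10 lowest, with ratios from 0.733 to 0.843 and intervals that held 1.

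**Figure D3:**
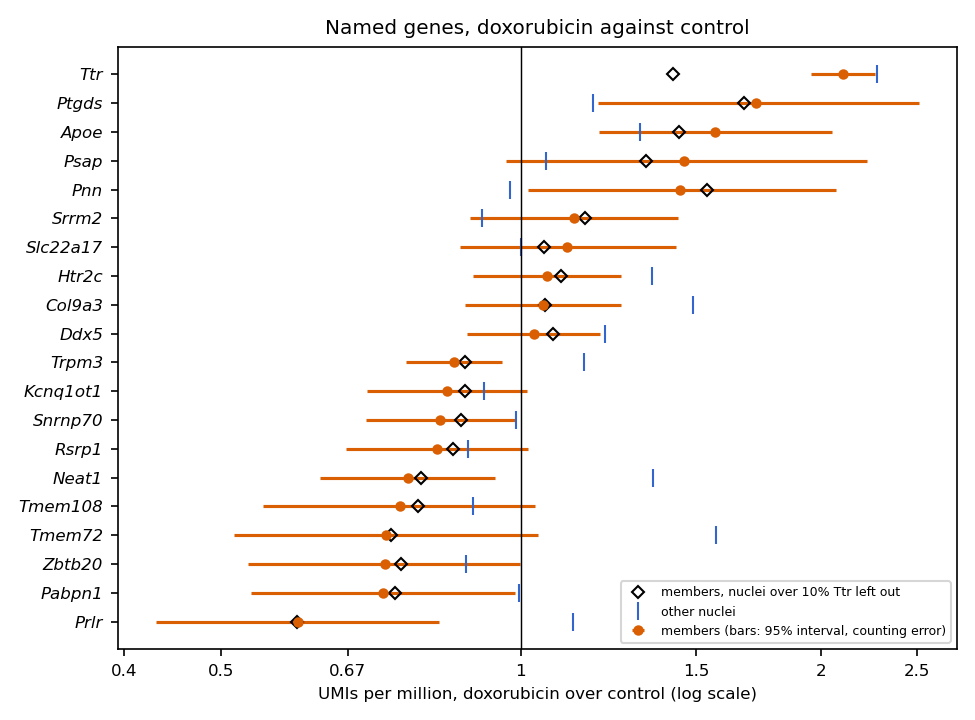
Ratio of CPM, doxorubicin over control (log axis), of the 10 highest and 10 lowest named genes in members (circles, bars for the 95% counting interval), in members without nuclei over 10% Ttr (diamonds) and in the other nuclei (ticks). Ttr lies at 2.10, 1.42 and 2.28 by these 3 measures, and Prlr at 0.598, 0.596 and 1.13.

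Some list genes of fewer UMIs were lower in doxorubicin with an interval under 1. Kcnj13 had 51 and 26 UMIs, 0.439-fold (0.263 to 0.717; other nuclei 1.13). Dnah6, a heavy chain of ciliary dynein, had 47 and 22 UMIs, 0.403-fold (0.231 to 0.682; other nuclei 1.13). Msx1 had 33 and 20 UMIs, 0.522-fold (0.284 to 0.937), and Vcam1, an adhesion molecule for leukocytes, had 19 and 8, 0.363-fold (0.137 to 0.867). These genes were named for their ratios. Some lists are given beside all 1312 genes with at least 20 UMIs, of which 15.9% were past the fold higher and 14.3% lower. Msx1 was 1 of 2 regional transcription factors with at least 20 UMIs, and that list summed to 0.745-fold (0.515 to 1.08). Vcam1 was the only such gene of the barrier immunity list, which summed to 0.769-fold (0.545 to 1.08). Of 14 ion and water transport genes with at least 20 UMIs, 1 was past the fold higher and 2 lower (median log2 ratio -0.12). Of 8 cilia genes, 1 was higher and 1 lower (median -0.06), and of 7 solute carriers 0 and 1 (median -0.43). The 7 receptor and channel genes had 2 and 1, with a median of 0.00.

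Over all 1312 genes with at least 20 UMIs, 641 were higher in doxorubicin, 208 of them past the fold (15.9%). Of 58 cytosolic ribosomal protein genes with at least 20 UMIs, 47 were higher, 26 of them past the fold, and 2 were lower past the fold, with a median log2 ratio of 0.48 beside -0.02 over all genes. Rpl13 had 18 and 41 UMIs and Rpl3 had 11 and 30. Of 32 nuclear-encoded genes of oxidative phosphorylation, 27 were higher, 11 past the fold, and 0 were lower past the fold, with a median of 0.40. Cox4i1, a subunit of cytochrome c oxidase, had 31 and 53 UMIs. The summed ratios were 1.41 (1.29 to 1.54) for the ribosomal proteins and 1.36 (1.23 to 1.51) for oxidative phosphorylation, beside 1.21 and 1.27 in the other nuclei.

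Part of this rested on the members over 10% Ttr. Without them the sums were 1.31 (1.20 to 1.44) and 1.22 (1.09 to 1.35), and the medians 0.28 and 0.24. The mitochondrially encoded genes had 60 and 319 UMIs, 4.58-fold (3.47 to 6.14), and 0.930-fold (0.635 to 1.36) without those members. Secreted proteins, led by Ttr, went from 1.59 to 1.20 in the same step.

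**Figure D4:**
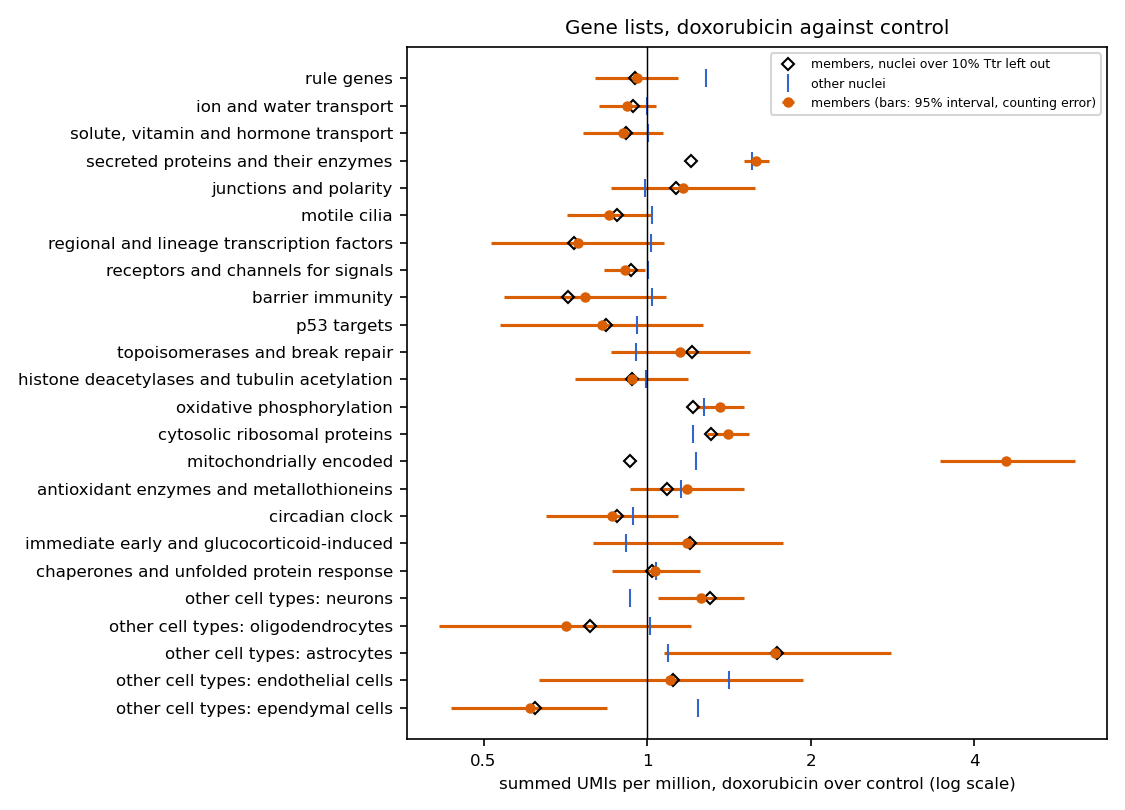
Ratio of summed CPM, doxorubicin over control (log axis), of gene lists in members (circles, bars for the 95% counting interval), in members without nuclei over 10% Ttr (diamonds) and in the other nuclei (ticks). The mitochondrially encoded list lies at 4.58 with all members and at 0.930 without those nuclei, and the microglial and fibroblast lists, with 2 to 7 UMIs, are not drawn. The rule genes, also drawn, chose the members.

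Genes that respond to DNA damage were near the floor. The 20 p53 targets had 47 UMIs in control and 45 in doxorubicin, 0.824-fold (0.535 to 1.27). Cdkn1a, which encodes the cell cycle inhibitor p21, Pmaip1 and Eda2r had 0 UMIs in all 3 libraries, and Mdm2, the ligase that degrades p53, had 17 and 10, 0.506-fold (0.207 to 1.17). Of the targets of doxorubicin, Top2a, the topoisomerase of dividing cells, had 0 UMIs, and Top2b, that of resting cells, had 7 and 10. The 20 topoisomerase and repair genes summed to 1.15-fold (0.859 to 1.55). A difference in either list was not detectable at this depth.

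Hdac6, the target of ACY-1083, had 4, 1 and 5 UMIs, found in 3, 1 and 5 members. Tuba1b, an alpha-tubulin, a class of protein that HDAC6 deacetylates, had 5, 18 and 23 UMIs, and doxorubicin was 3.10-fold control (1.11 to 10.7; other nuclei 1.14). The 19 deacetylase and tubulin genes together were at 0.936 (0.738 to 1.19), and of the 4 with at least 20 UMIs, 2 were higher and 2 lower.

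Markers of other cell types also differed between the members of control and doxorubicin. The neuronal list was 1.25-fold higher in doxorubicin (1.05 to 1.5; other nuclei 0.931), with 206 and 300 UMIs. The astrocyte list was at 1.72 (1.08 to 2.82), with 28 and 56 UMIs, and the ependymal list at 0.608 (0.436 to 0.845), with 92 and 65. Microglial markers had 2 UMIs in each and fibroblast markers 6 and 7. The part of these in the gene ratios was not tested.

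The library with ACY-1083 differed from doxorubicin along intron length. Over 4743 genes, the members' median log2 ratio was -0.95 among the genes with the shortest introns, in the first of 4 equal bins, and -0.20, 0.48 and 1.34 in the next bins (Spearman's rho 0.642 across genes, which share the same pair of libraries). The other nuclei had -1.23, -0.38, 0.30 and 1.32. Between doxorubicin and control, the members' medians lay between -0.10 and 0.06. Spearman's rho there was -0.136 in members and -0.369 in the other nuclei, over 1312 genes. Each gene's ratio was therefore divided by its ratio in the other nuclei, for genes of which members held under 10% of UMIs, a limit that left out all 8 rule genes.

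**Figure D5:**
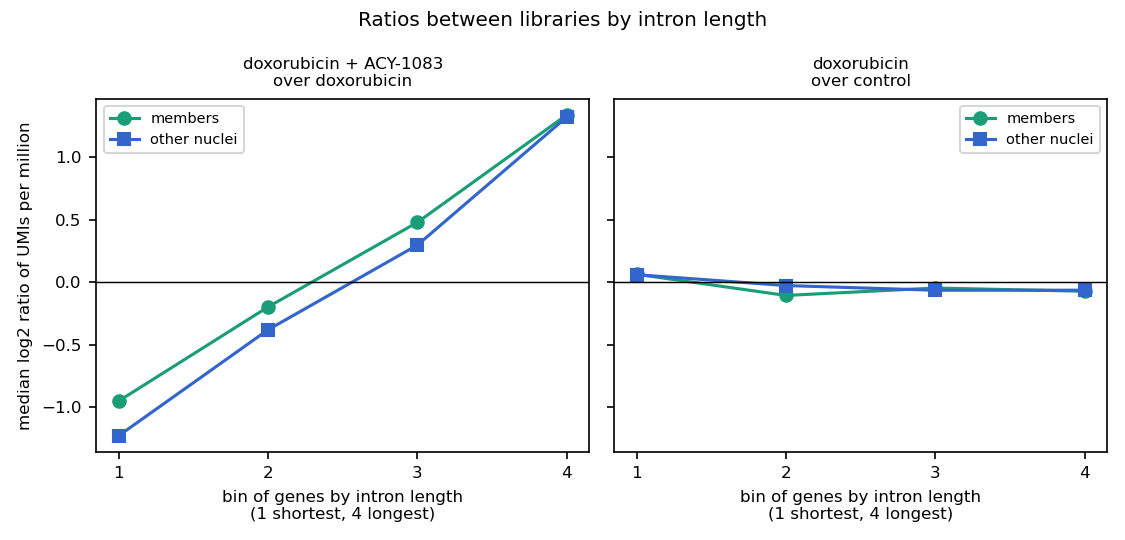
Median log2 ratio of CPM in 4 bins of genes by intron length, with the same bounds in both panels, for doxorubicin plus ACY-1083 over doxorubicin (left) and doxorubicin over control (right), in members (circles) and the other nuclei (squares). The bins hold 1185 or 1186 genes each on the left and 504, 285, 276 and 247 on the right. On the left the members run from -0.95 to 1.34, and on the right they stay between -0.10 and 0.06.

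Of 1527 genes with at least 50 UMIs, 349 were at least 1.5-fold higher than in doxorubicin after that division (22.9%) and 190 at least 1.5-fold lower (12.4%). Of 4496 genes with at least 20 UMIs, 25.6% were higher and 16.7% lower, with a median log2 value of 0.11. Wdr17 had 2, 4 and 2865 UMIs and a relative ratio of 15.7 (6.11 to 57.5), beside 10.8-fold in the other nuclei. Mid1, a ubiquitin ligase on microtubules, had 6, 5 and 187 UMIs, 8.82 (3.71 to 27.5), and was at 0.998 in the other nuclei. Mef2c, a transcription factor, had 11, 22 and 282 UMIs, 3.81 (2.47 to 6.18). Ano4, of the anoctamin family, had 1, 1 and 132 UMIs, 11.7 (2.06 to 465). Sema6d, a semaphorin, had 1, 0 and 110 UMIs, 2.79-fold higher after the division with 3 UMIs set as the floor in doxorubicin. The lower bound of its relative interval was 2.23. Bri3 had 8, 11 and 128 UMIs, 5.11 (2.76 to 10.5), but 0.964 when the trend with intron length was removed instead.

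Of the 6 lowest, 4 changed direction with the scaling. Ptprg, a receptor phosphatase, had 2, 10 and 112 UMIs and a relative ratio of 0.264 (0.139 to 0.566), but 2.64 by plain CPM. Fgfr2, a receptor for fibroblast growth factors, was at 0.327 (0.193 to 0.603), but 7.22 by plain CPM and 1.13 with the intron trend removed. Cab39l was at 0.621 (0.453 to 0.869), but 1.67 by plain CPM. Kcnj13 was at 0.486 (0.307 to 0.792), but 1.41 with the intron trend removed. Dync2h1, the motor of retrograde transport in cilia, with 27 and 85 UMIs, was at 0.508 (0.326 to 0.815), and Ube2k, a ubiquitin-conjugating enzyme, with 25 and 84, at 0.516 (0.327 to 0.842).

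By lists, 15 ion and water transport genes had a median log2 relative ratio of -0.01, 13 solute carriers 0.22, 11 secreted proteins 0.15 and 9 cilia genes 0.30, beside 0.11 over all genes. Slc4a10 was at 2.38 (1.68 to 3.48), from 33 and 708 UMIs, and Slc23a2 at 1.80 (1.13 to 3.05), from 19 and 247. Tjp1, a scaffold of tight junctions, was at 0.252 (0.123 to 0.584), from 9 and 50. Members held 77916 and 330891 UMIs in all, so by plain CPM Tjp1 was higher in the third library. Of the 7 junction genes in this comparison, 5 were higher and 2 lower (median 0.16). Of 10 receptor and channel genes, 0 were past the fold higher and 3 lower (median -0.20). Of 10 deacetylase and tubulin genes, 5 were past the fold higher and 1 lower (median 0.51). Over all 4496 genes with at least 20 UMIs, 25.6% were past the fold higher and 16.7% lower.

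The 71 ribosomal protein genes had a median of 0.18 and the 61 oxidative phosphorylation genes 0.14, both near that of all genes. All 8 mitochondrially encoded genes tested were lower past the fold, with a median of -1.74, against the doxorubicin library with the nucleus of 6.74% such UMIs. Of the markers of other cell types, 2 of 3 astrocyte genes were past the fold lower (median -0.80), and of 6 neuronal genes 3 were lower and 1 higher (median -0.31). The part of these in the gene ratios was not tested. Treatment, library and counting cannot be told apart in this comparison.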

How the data were processed

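Nuclei of 3 pooled samples were profiled with 3' single-nucleus libraries, and the analysis began from the raw UMI counts per gene and barcode as deposited by the authors. Per the file headers, Cell Ranger 4.0.0 wrote the control and doxorubicin matrices and 5.0.0 that with ACY-1083. Version 6.0.0 and the build mm10 stand in the submitters' processing notes. How intron reads were treated was not given in the sources used here; libraries held 19175447, 21458785 and 62151258 UMIs, with at least 500 per barcode. Counts of members were summed per library and scaled to CPM. Intervals are exact Poisson for levels, Clopper-Pearson for shares and conditional on the sum for ratios, at 95%. Calls past 1.5-fold add 0.5 to each sum and are no test. Intron lengths came from GENCODE vM21, which matched 32235 of 32285 genes. Doublets were kept. In an alternative they were removed at a Scrublet score of 0.3 (scanpy 1.11.5), since its own threshold marked 3, 1 and 344 barcodes, together with nuclei under 300 genes or over 5% mitochondrial UMIs. Scaling with edgeR 4.0.16 (TMM) was another alternative. Named genes had at least 100 UMIs in both libraries together. A level in members no lower than in the other nuclei was required only in the library where the ratio put the gene higher. In the other library of the pair some lay under the other nuclei. In doxorubicin Zbtb20 had 1001 against 1045 CPM and Sema6d 0 against 104 CPM. Named genes were the 10 highest and 10 lowest (6 and 6 with ACY-1083) by the interval bound nearest to 1. List genes were named by level or ratio, and others for being at 0 after their values were seen. Ratios and intervals were tested on simulated data, drawn as independent Poisson counts, the model that the intervals assume. The simulation held no spread between nuclei, so it cannot show how the intervals behave under such spread. The members and lists were chosen with earlier results of these data known.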

Additional observations from a re-analysis of the deposited data

How the results depend on the processing

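The share of members was 0.651%, 0.802% and 0.992% with at least 2 rule genes, 0.202%, 0.164% and 0.656% with at least 4, and 0.0825%, 0.106% and 0.148% after thinning to 500 UMIs. Without the exclusion genes it was 0.540% in doxorubicin and 1.06% with ACY-1083. Genes past 1.5-fold in doxorubicin, 21 higher and 25 lower of 265, were 60 and 39 of 641 with at least 2 rule genes, 11 and 6 of 74 with at least 4, 5 and 1 of 67 with at least 100 UMIs, and 208 and 187 of 1312 with at least 20. Higher and lower genes numbered 14 and 15 of 231 with the filters on nuclei, and 14 and 14 of 237 without members over 10% Ttr, without which 12 of the 21 and 19 of the 25 stayed past the fold. The Ttr ratio was 1.73 with at least 2 rule genes, 3.77 with at least 4, 1.48 with the filters, 1.42 without members over 10% Ttr and 1.75 with nuclei weighted alike. With at least 4 rule genes Pnn was at 0.928, Htr2c at 0.929, Col9a3 at 0.949 and Neat1 at 1.06, and the other 129 of 133 values of named genes in that comparison kept their direction. With ACY-1083, 682 genes were higher and 370 lower by plain CPM, 99 and 42 with at least 100 UMIs, and 363 lower with the intron trend removed. Plain CPM gave Ptprg 2.64, Fgfr2 7.22 and Cab39l 1.67, and removing the intron trend gave Bri3 0.964, Fgfr2 1.13 and Kcnj13 1.41. Other UMI minimums and rules test other numbers of genes or nuclei, and beyond that the cause was not tested. Gene ratios with the thinned rule were not run, since it left 9 members in control, and Sema6d, at 0 UMIs in doxorubicin, has no ratio to vary. No paired analysis was possible because each group had 1 library.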
